A study of Arabidopsis thaliana with 24 samples.

Results

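The protein-coding genes of the Arabidopsis mitochondrial genome were taken as all rows of the deposited count table whose identifier starts with ATMG and whose biotype is protein-coding. They came to 120 of the 32833 rows. Whole 9-day-old seedlings of the wild type (Col-0) and of the exa1-1 mutant, grown on MS medium with sucrose, were treated for 60 min in a salt set and a heat set. The salt set held wild type and exa1-1 on control MS medium and on the same medium with 200 mM NaCl. The heat set held wild type and exa1-1 at 23 °C and at 39 °C on MS medium. There were 24 libraries, 3 in each of 8 groups. The series text calls the replicates independent biological ones without saying how cultures were kept apart, and the p-values below cover only the spread seen among these libraries.

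Mitochondria keep a small genome of their own, which in plants codes for core subunits of the respiratory complexes and of ATP synthase, for some ribosomal proteins, for cytochrome c maturation proteins and for an intron maturase. Most other mitochondrial proteins are encoded in the nucleus and imported. Plant mitochondrial mRNAs are edited and spliced in the organelle and as a rule carry no stable poly(A) tail, and in plant mitochondria a poly(A) tail marks RNA for degradation. The libraries are labelled as strand-specific mRNA libraries, and how mRNA was enriched is not given in the sources used here. If poly(A) RNA was selected, the values below count the polyadenylated part of these transcripts, so that a change in transcript amount, in polyadenylation and in RNA quality cannot be told apart. In whole seedlings, fewer cells of a type and less RNA per cell cannot be told apart either.

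Libraries held 17600922 to 21557382 assigned reads. EXA1 (AT5G42950), which encodes a GYF-domain protein, had 1488 to 3111 reads in the wild-type libraries and 143 to 342 in the exa1-1 libraries. The photosynthetic genes RBCS1A and CAB1 had at least 3798 RPM (reads in every 1000000 assigned reads) in every library, while LHCB3 ranged from 50.0 to 1460 RPM. The root nitrate transporter gene NRT2.1 had 22 to 1192 reads, and the seed storage gene CRA1 had 1 to 264. The other root marker genes, SCR and AT5G47450, had 75 to 1004 and 31 to 881 reads. Reads of mitochondrial coding genes were rare throughout. They summed to 16081 over all libraries, 46 of the 120 genes had no read in any library, 74 had at least 1, and 25 had 100 or more. Counting error is therefore large for most single genes.

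Mitochondrial DNA has also been copied into the nucleus, chiefly as a long insertion on chromosome 2, and reads that match both places can be dropped or split by a read counter. Of the 120 genes, 59 had a nuclear copy and 61 had none found. The 19 genes matched to a RefSeq coding sequence were compared with the nuclear genome, and a copy meant at least 95% identity over at least 90% of that sequence on chromosome 2. The others were judged by notes in the reference annotation and names in the files alone. Of the 61 genes with none found, 55 were judged in this way, ATMG00690 and ATMG00660 among them, so a copy of theirs could have been missed. The 59 genes with a copy had 1474 reads in all and a median of 1 per gene, and the 61 without had 14607 and a median of 16. The strongest gene, cox1, the catalytic subunit of cytochrome c oxidase, had a best-scoring nuclear match of 53 bases. That match is labelled longest below, but matches were ranked by score and not by length. Stretches of 3 genes are shown because they set how far each gene's reads can be told from nuclear DNA. They are from the RefSeq sequences of TAIR10.1, on the coding strand, with bases that differ between mitochondrial and nuclear copy in capitals. The mitochondrial sequence of that assembly is not the one used for the deposited counts, so the positions below are those of RefSeq, and the ATMG identifiers were matched to it by gene name.
cox1 in the mitochondrial genome, positions 114833 to 114885, minus strand: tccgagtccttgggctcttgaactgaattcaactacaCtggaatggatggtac
cox1 longest nuclear match, chr1:29472653-29472705, minus strand: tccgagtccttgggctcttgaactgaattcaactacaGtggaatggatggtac
cox2 in the mitochondrial genome, positions 6450 to 6569, plus strand: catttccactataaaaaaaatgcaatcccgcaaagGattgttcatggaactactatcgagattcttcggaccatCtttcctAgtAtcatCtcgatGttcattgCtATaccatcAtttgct
cox2 nuclear match, chr2:3347137-3347256, plus strand: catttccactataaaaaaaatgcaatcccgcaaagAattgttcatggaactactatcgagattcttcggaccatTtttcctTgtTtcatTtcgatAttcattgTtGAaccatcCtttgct
atp9 in the mitochondrial genome, positions 270961 to 271080, and in identical form in the nucleus, chr2:3251856-3251975, both minus strand: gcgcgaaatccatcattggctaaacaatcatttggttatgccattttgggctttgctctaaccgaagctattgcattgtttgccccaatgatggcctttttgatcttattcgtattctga

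The cox1 match covers 53 bases with 1 difference. The cox2 match, for another core subunit of cytochrome c oxidase, covers 306 bases with 11 differences, 10 of them in the 120 bases shown. The whole 225 bases of atp9, the ring subunit of ATP synthase, are the same in both places. Where a gene has an identical nuclear copy, as atp9 does, a low count does not show a low transcript level.

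Reads of mitochondrial coding genes were several times more frequent at 39 °C than at 23 °C in both genotypes. In the wild type they made up 14.0, 13.9 and 11.2 RPM at 23 °C and 71.6, 80.9 and 111 at 39 °C. In exa1-1 they made up 11.9, 13.4 and 15.3 at 23 °C and 76.5, 132 and 102 at 39 °C. No library at 39 °C fell within the range at 23 °C. The mean was 6.74-fold higher in the wild type (88.0 ± 20.8 against 13.0 ± 1.62 RPM, SD, n = 3) and 7.63-fold higher in exa1-1 (103 ± 27.6 against 13.5 ± 1.73). The exact two-sided permutation test gave p = 0.1 for each genotype, the smallest that 3 against 3 libraries allow.

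**Figure D1:**
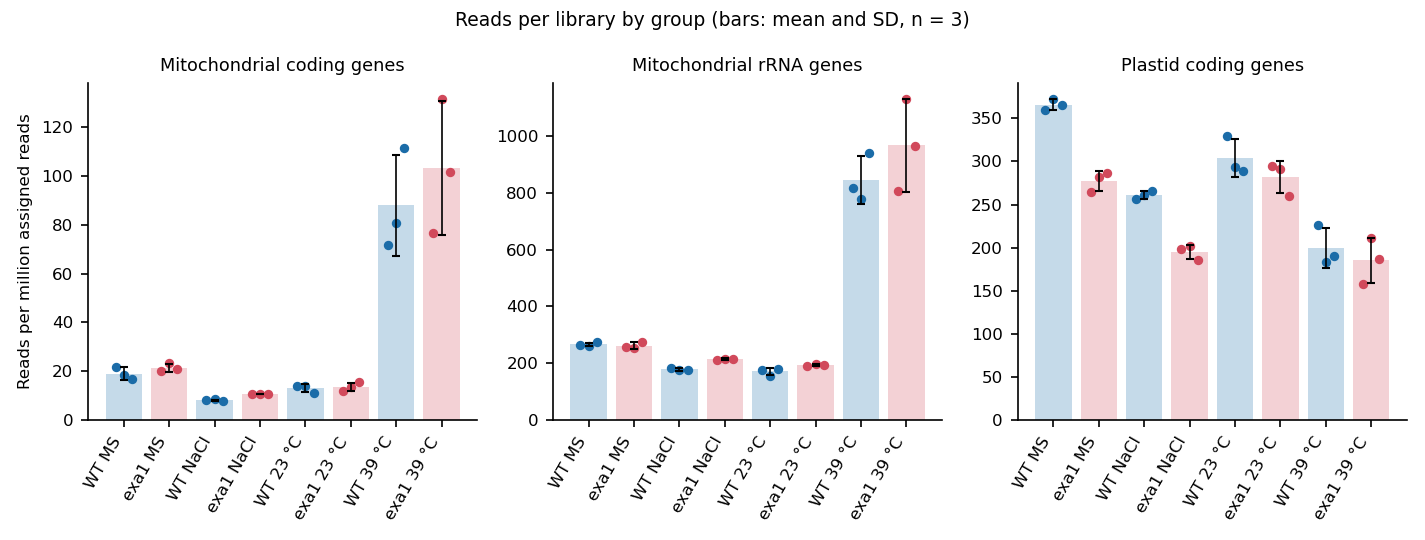
RPM of the mitochondrial coding genes, the mitochondrial rRNA genes and the plastid coding genes, with 1 point per library and bars for the mean and SD of 3 libraries. Mitochondrial coding genes stand at 71.6 to 132 RPM at 39 °C and at 23.3 or below in all other libraries, while plastid coding genes are lower at 39 °C than at 23 °C.

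The 2 mitochondrial rRNA rows rose with them, while mitochondrial tRNA reads overlapped between temperatures and plastid coding reads were fewer in RPM. The 26S rRNA row was 3.26-fold higher in RPM at 39 °C in both genotypes, and the 18S rRNA row 8.84-fold in the wild type and 9.91-fold in exa1-1. The edgeR tests used another scaling, given below. By them the 26S row rose by a log2 of 2.61 in the wild type and 2.59 in exa1-1 (edgeR adjusted p = 1.11e-13 and 1.10e-13). The 18S row rose by 4.05 and 4.19 (adjusted p = 2.12e-17 and 1.23e-17). The tRNA rows together held 116, 87 and 108 reads at 23 °C and 85, 93 and 106 at 39 °C in the wild type, and 104, 106 and 96 against 94, 144 and 85 in exa1-1. Plastid coding genes went from 304 ± 22.1 to 200 ± 23.0 RPM in the wild type and from 282 ± 18.8 to 185 ± 26.4 in exa1-1 (SD, n = 3), with no overlap of groups (exact permutation p = 0.1 for each). By the edgeR tests, 13 of 51 plastid genes tested rose and 16 fell in the wild type (median log2 −0.24). In exa1-1 13 rose and 15 fell (median −0.20). Of all genes, 36.6% and 36.3% rose and 38.6% and 39.7% fell. At 39 °C the library with the most mitochondrial coding reads in each genotype was also the one with the most mitochondrial rRNA reads, at 941 RPM in the wild type and 1132 in exa1-1. The part of RNA quality or of rRNA carried into the libraries in these values was not tested. Reads of the annotated chromosome 2 copies were 3.05-fold higher at 39 °C in the wild type and 3.18-fold in exa1-1.

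Gene by gene, 24 of the 120 genes had enough reads to be tested in the heat set, and 24 rose at 39 °C in each genotype (edgeR's quasi-likelihood test, Benjamini-Hochberg adjusted p below 0.05 over all 21196 genes tested). Of all genes tested, 36.6% rose in the wild type and 36.3% in exa1-1, and with libraries scaled to total reads 12.2% and 13.6% rose and 72.8% and 71.7% fell. A gene could pass the read filter through its reads at 39 °C alone, so this count is no support for a general rise. Of the 16 genes that passed the filter in unstressed libraries alone, 15 were tested here and rose in both genotypes. The other, ATMG01330, had 10, 3 and 9 reads at 23 °C and 3, 7 and 8 at 39 °C in the wild type. The 96 untested genes together went from 1.84 ± 0.555 to 4.36 ± 1.43 RPM in the wild type, 2.37-fold, and from 1.59 ± 0.989 to 4.57 ± 1.88 in exa1-1, 2.88-fold (SD, n = 3).

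The size of the fold depends on the scaling. The trimmed mean (TMM) factors that edgeR used were 1.34 to 1.39 at 23 °C and 0.721 to 0.748 at 39 °C. With these, the median log2 fold change was 3.99 for the tested mitochondrial genes and −0.06 for all genes in the wild-type libraries, against 4.18 and −0.09 for the mutant. With libraries scaled to total reads only, an alternative added after these factors were seen, the medians were 3.10 and −0.97 in the wild type and 3.31 and −0.97 in exa1-1. The number that rose was 24 under either scaling. Below, fold changes in RPM come first and the TMM-scaled log2 value second.

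Among the 19 genes that could be grouped by name, the 2 of complex IV together had the most reads at 39 °C. The cox1 row (ATMG01360) held 24, 19 and 21 reads in the wild type at 23 °C and 334, 292 and 375 at 39 °C. In exa1-1 it held 17, 27 and 29 reads at 23 °C and 363, 592 and 421 at 39 °C. Every library at 39 °C was above every library at 23 °C. In RPM cox1 rose 16.8-fold in the wild type (log2 4.96 ± 0.21 SE, edgeR adjusted p = 1.29e-14) and 18.6-fold in exa1-1 (log2 5.08 ± 0.20 SE, adjusted p = 4.47e-15). It went from 8.02% of the mitochondrial coding reads at 23 °C to 20.0% at 39 °C in the wild type. The cox2 row (ATMG00160) held 11, 12 and 11 reads at 23 °C and 118, 81 and 141 at 39 °C in the wild type, 10.7-fold in RPM, and rose 17.3-fold in exa1-1.

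Complex I genes code for subunits of NADH dehydrogenase. The nad4L row (ATMG00650) held 19, 10 and 13 reads at 23 °C and 59, 64 and 108 at 39 °C in the wild type, and rose 5.96-fold in RPM there and 12.3-fold in exa1-1. The nad6 row (ATMG00270) had no read in the 6 libraries at 23 °C and 12, 20 and 20 reads in the wild type at 39 °C and 19, 20 and 16 in exa1-1. Against a floor of 3 counts over the group, nad6 was at least 18.5-fold higher in the wild type and at least 18.0-fold higher in exa1-1. The nad6 coding sequence has an identical nuclear copy. The nad7 row (ATMG00510) rose from 1, 1 and 1 reads to 5, 10 and 18 in the wild type (log2 4.25 ± 0.90 SE, edgeR adjusted p = 2.41e-04). In exa1-1 it held 6, 1 and 0 reads at 23 °C and 7, 26 and 23 at 39 °C. A nuclear copy was found for nad7, too.

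Among ATP synthase genes, atp6-2 (ATMG01170) rose, with 9, 13 and 6 reads at 23 °C and 22, 23 and 28 at 39 °C in the wild type, 2.77-fold in RPM and 2.42-fold in exa1-1. The atp1 row (ATMG01190), the alpha subunit, had 0, 1 and 0 reads at 23 °C and 17, 13 and 15 at 39 °C. Both have a nuclear copy. Of the ribosomal protein genes, rps3 and rpl16 rose, too. The rps3 row (ATMG00090) held 24, 21 and 16 reads at 23 °C and 123, 131 and 194 at 39 °C in the wild type, 7.88-fold in RPM, and rose 11.9-fold in exa1-1. The rpl16 row (ATMG00080), which overlaps rps3 in the RefSeq annotation so that their reads are uncertain, rose 3.61-fold in the wild type and 8.25-fold in exa1-1. The genotypes were not shown to differ for any of these, since none of the 24 genes passed the test of the genotype by heat interaction. The 4 cytochrome c maturation genes together showed no rise in RPM in the wild type, with 21 reads at 23 °C and 20 at 39 °C (0.346 ± 0.261 and 0.347 ± 0.0705 RPM, SD, n = 3). Of these genes, ABCI5 had no read in any library, and ABCI5, ccmFC and ccmFN1 have a nuclear copy. The remaining gene, ccb206, held 8, 7 and 0 reads at 23 °C and 5, 3 and 3 at 39 °C in the wild type. In exa1-1 the 4 genes together held 10 and 21 reads (0.176 ± 0.133 and 0.354 ± 0.249 RPM). The maturase gene matR, which has a nuclear copy, held 4 and 10 reads in the wild type and 6 and 16 in exa1-1.

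**Figure D2:**
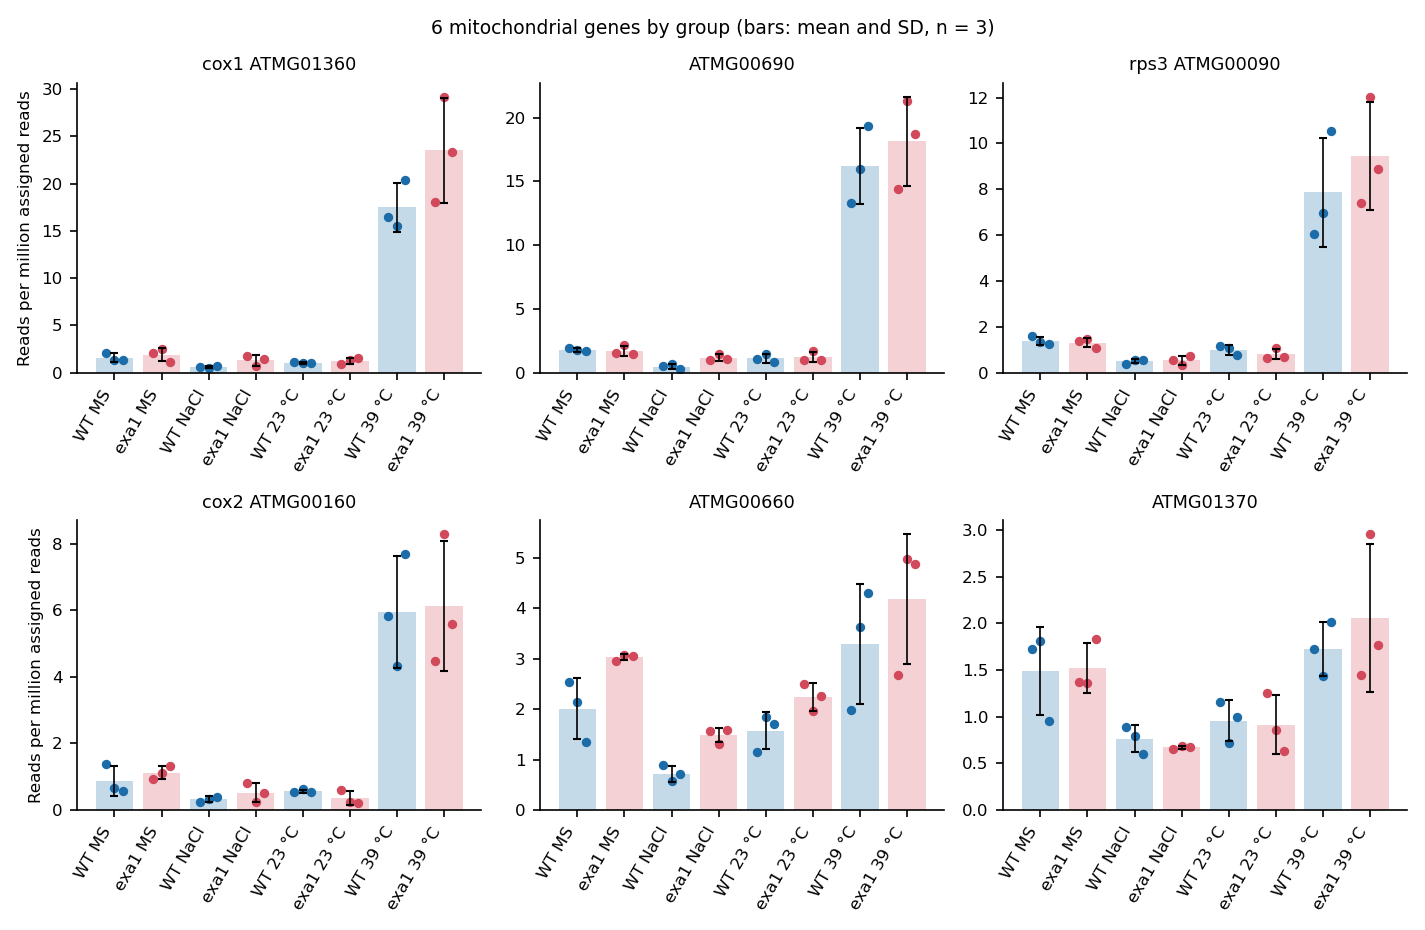
RPM in each library for 6 mitochondrial genes, with 1 point per library and bars for the mean and SD of 3 libraries. cox1, ATMG00690, rps3 and cox2 stand many-fold higher at 39 °C than at 23 °C, while ATMG00660 and ATMG01370 rise 1.80- to 2.26-fold in RPM.

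Genes that the files do not name included both large and small rises. ATMG00690 held 22, 29 and 17 reads in the wild type at 23 °C and 270, 300 and 355 at 39 °C, 14.5-fold in RPM, and 15.0-fold in exa1-1. ATMG00660, the gene with the most reads at 23 °C, held 24, 36 and 36 reads there and 40, 68 and 79 at 39 °C, 2.1-fold, and 1.87-fold in exa1-1. ATMG01370 held 24, 14 and 21 reads at 23 °C and 35, 27 and 37 at 39 °C, 1.80-fold, and 2.26-fold in exa1-1. The makeup of the mitochondrial reads thus differed between temperatures. When libraries were scaled to their own mitochondrial coding reads, 6 genes were higher and 4 lower at 39 °C in the wild type, and 5 higher and 5 lower in exa1-1. Under that scaling 20873 of all 21196 genes tested passed in the wild type and 20844 in exa1-1. The adjustment over all genes therefore corrected these calls little. ATMG00660 was then lower by a log2 of −1.72 in the wild type and −2.05 in exa1-1, and ATMG01370 by −1.89 and −1.80.

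Levels per length were low in all groups. In FPKM, which the authors computed, ATMG00690 stood at 1.55 ± 0.474 at 23 °C and 22.4 ± 4.16 at 39 °C in the wild type (SD, n = 3). nad4L stood at 2.25 ± 0.690 and 13.4 ± 5.24, and cox1 at 0.73, 0.61 and 0.63 in the libraries at 23 °C and 11.0 ± 1.63 at 39 °C. At 39 °C in the wild type ATMG00690 was highest, followed by nad4L and cox1, whose levels overlapped. The row ATMG00665, given a length of 22 bases, was left out of this order, since its FPKM of 26.3 rested on 33 reads.

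**Figure D3:**
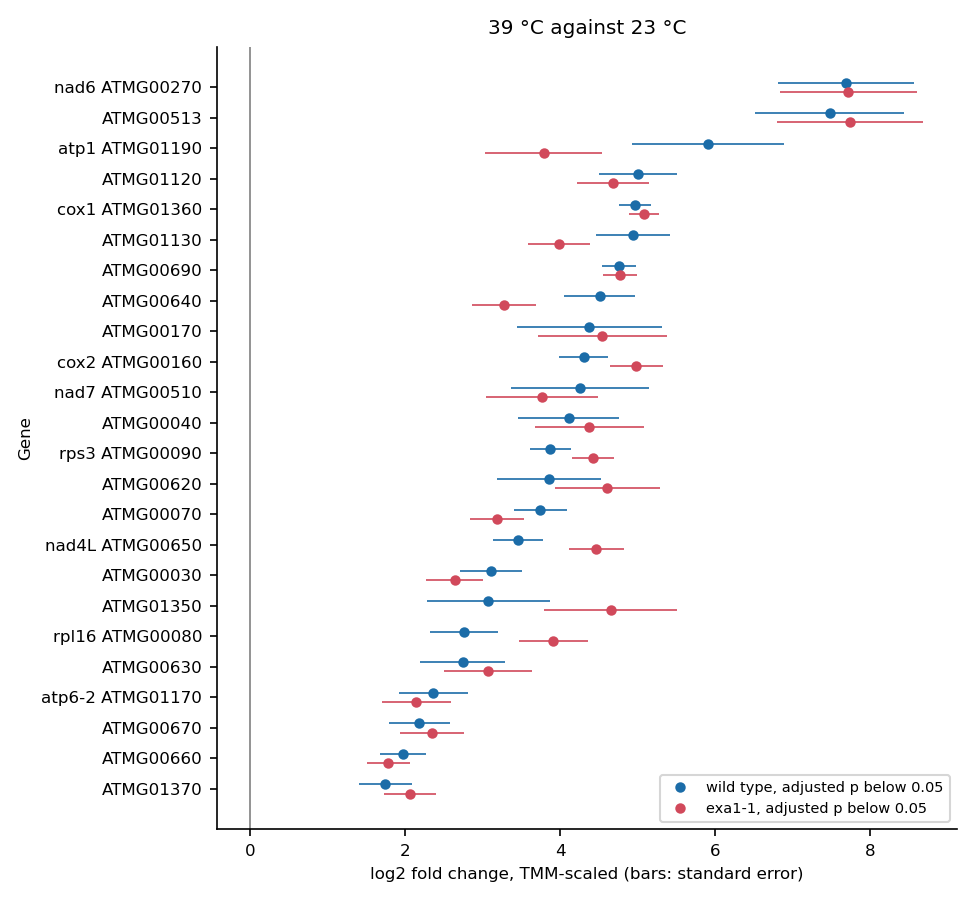
TMM-scaled log2 fold change at 39 °C against 23 °C for the 24 tested mitochondrial genes, with points for the estimate in each genotype and bars for its standard error. All 24 lie above 0 in both genotypes, from 1.74 to 7.69 in the wild type and from 1.78 to 7.74 in exa1-1; the values of nad6 and ATMG00513 have no reads at 23 °C behind them and are not bounds.

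With NaCl, mitochondrial coding reads were fewer in both genotypes. In the wild type they made up 21.9, 18.5 and 16.7 RPM on control medium and 7.99, 8.35 and 7.68 with NaCl. In exa1-1 they made up 20.2, 23.3 and 20.7 on control medium and 10.8, 10.6 and 10.8 with NaCl. The groups did not overlap in either genotype. The mean was 2.37-fold lower with NaCl in the wild type and 2.00-fold lower in exa1-1 (exact permutation p = 0.1 for each, the smallest possible). Mitochondrial tRNA reads were also fewer, at 219, 265 and 181 on control medium and 50, 57 and 58 with NaCl in the wild type, and at 186, 233 and 244 against 93, 105 and 85 in exa1-1. Of the rRNA rows, 18S fell in both genotypes (log2 −0.69 ± 0.05 SE, edgeR adjusted p = 1.26e-30 in the wild type, and −0.45 ± 0.05 SE, adjusted p = 1.35e-17 in exa1-1). The 26S row fell in the wild type (log2 −0.32 ± 0.03 SE, edgeR adjusted p = 2.23e-18). In exa1-1 it was at a log2 of −0.0047 ± 0.032 SE (adjusted p = 0.90), or at −0.16 ± 0.03 SE (adjusted p = 1.87e-06) with libraries scaled to total reads. The salt response of the 26S row differed between genotypes by a log2 of 0.32 ± 0.05 SE (edgeR adjusted p = 1.40e-09) and that of 18S by 0.24 ± 0.07 SE (adjusted p = 0.0031). Mitochondrial rRNA reads together were 1.5-fold lower in the wild type and 1.23-fold lower in exa1-1, and plastid coding reads 1.40-fold and 1.42-fold lower.

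Of 16 genes tested in the salt set, 10 fell with NaCl in the wild type, where 37.6% of all genes tested fell, and 8 fell in exa1-1, where 37.9% fell. None rose in either genotype. A gene could pass the read filter through its reads on control medium alone, so these counts and the medians below are no support for a general fall. The 104 untested genes together went from 3.75 ± 0.635 to 1.58 ± 0.235 RPM with NaCl in the wild type. In exa1-1 they went from 4.08 ± 0.449 to 1.60 ± 0.530 (SD, n = 3). Scaled to mitochondrial coding reads, ATMG00030 and ATMG01330 were higher with NaCl in the wild type (log2 1.32 and 1.40) and ATMG01120 and ATMG00070 lower in exa1-1 (−1.88 and −1.25). Under that scaling 19068 of all 21759 genes tested passed in the wild type and 18287 in exa1-1, so the adjustment corrected these calls little. With TMM factors, the wild type had a median log2 fold change of −1.27 and exa1-1 one of −0.91, beside −0.01 for all genes in each. The rps3 row fell from 33, 29 and 22 reads to 7, 10 and 11 in the wild type (log2 −1.30 ± 0.39 SE, edgeR adjusted p = 0.0018) and from 25, 29 and 21 to 11, 7 and 13 in exa1-1 (log2 −1.12 ± 0.39 SE, adjusted p = 0.0070). ATMG00660 fell from 53, 46 and 24 reads to 16, 10 and 14 in the wild type and from 54, 61 and 60 to 31, 27 and 28 in exa1-1. The cox2 row fell by a log2 of −1.27 in the wild type and −0.96 in exa1-1. Its call was lost in the wild type without replicate 1 of the control (−0.75) or of NaCl (−1.05), and in exa1-1 without replicate 2 or 3 of the control (−0.97 and −0.82) or of NaCl (−0.60 and −0.95), and there also with DESeq2 or with all 24 libraries in 1 fit (edgeR adjusted p = 0.052). The rps3 call in exa1-1 was lost without replicate 2 of NaCl (−0.86).

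The largest falls in exa1-1 were in ATMG01120 (log2 −2.69 ± 0.71 SE, edgeR adjusted p = 3.36e-04), ATMG01130 (−2.50 ± 0.80 SE) and ATMG00070 (−2.08 ± 0.50 SE). These 3 also fell in the wild type, by −1.57, −2.81 and −1.35. In the wild type the ATMG01120 call was lost without replicate 1 of the control (−1.30) or without replicate 2 or 3 of NaCl (−1.50 and −1.16), and also with DESeq2 (adjusted p = 0.061), with all 24 libraries in 1 fit (0.056) or with no filter on low counts (0.063). The ATMG00070 call was lost without replicate 2 of the control (−1.18) or replicate 3 of NaCl (−1.05). The files give none of the 3 a name. The nad4L row, with 11, 10 and 11 reads on control medium and 3, 9 and 12 with NaCl in the wild type, did not pass the test in either genotype.

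**Figure D4:**
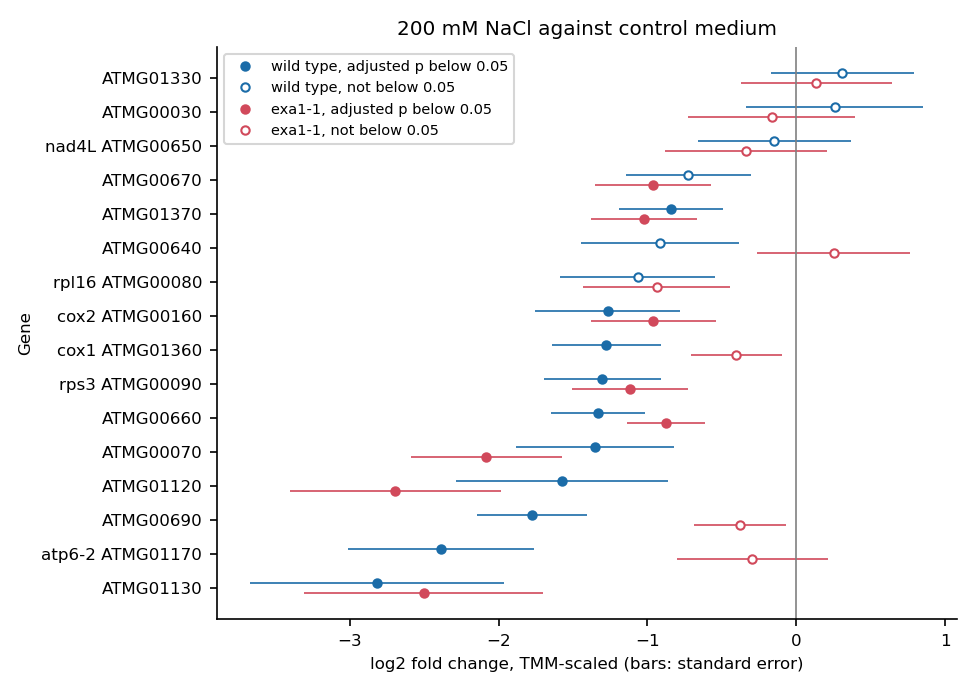
TMM-scaled log2 fold change with 200 mM NaCl against control medium for the 16 tested mitochondrial genes, with points for the estimate in each genotype and bars for its standard error; open points did not pass the threshold. Estimates run from −2.81 to 0.31 in the wild type and from −2.69 to 0.25 in exa1-1.

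Between genotypes, mitochondrial coding reads were 1.34-fold higher in exa1-1 with NaCl (10.7 ± 0.0850 against 8.01 ± 0.338 RPM, SD, n = 3, no overlap, exact permutation p = 0.1). Mitochondrial rRNA reads were 1.20-fold higher and plastid coding reads 1.34-fold lower there. Of 16 genes tested with NaCl, 4 were higher in exa1-1, where 18.6% of all genes were. They were ATMG00690, with 9, 12 and 5 reads in the wild type and 20, 30 and 19 in exa1-1 (log2 1.31 ± 0.40 SE, edgeR adjusted p = 0.0050), cox1 (log2 1.10 ± 0.38 SE, adjusted p = 0.015), ATMG00660 (log2 1.02 ± 0.33 SE, adjusted p = 0.010) and atp6-2 (log2 1.70 ± 0.70 SE, adjusted p = 0.046). The cox1 reads were 10, 9 and 14 in the wild type and 36, 14 and 25 in exa1-1, and the call was lost without replicate 1 of exa1-1 (log2 0.77, edgeR adjusted p = 0.18) or without replicate 1 or 2 of the wild type (1.04 and 0.99), and with all 24 libraries in 1 fit (adjusted p = 0.058). The ATMG00690 call was lost without replicate 3 of the wild type (log2 0.97), and the ATMG00660 call without replicate 2 of the wild type (0.87). The atp6-2 reads, 0, 5 and 2 against 4, 13 and 8, overlapped between genotypes, and that call was lost without replicate 1 or 3 of the wild type (log2 1.14 and 1.54) or replicate 2 or 3 of exa1-1 (1.28 and 1.66). DESeq2 lost it too (adjusted p = 0.062), as did leaving low counts unfiltered (0.063) and a joint fit of all 24 libraries (0.098).

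On control medium no gene of 16 passed the test between genotypes by edgeR (29.3% of all genes did), with 1 at an unadjusted p below 0.05, and DESeq2 called 0. At 23 °C the count was 0 of 24 (7.54% of all genes), with 0 at an unadjusted p below 0.05 and 0 by DESeq2. At 39 °C it was 0 of 24 (15.5% of all genes), with 1 at an unadjusted p below 0.05 and 0 by DESeq2. That gene was cox1, at a log2 of 0.41 ± 0.14 SE and an edgeR adjusted p of 0.059. The totals overlapped between genotypes on control medium, at 23 °C and at 39 °C.

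The response to salt differed between genotypes for 1 of 16 genes, ATMG00690, where 21.2% of all genes passed that test. Its log2 fold change with NaCl was −1.78 ± 0.37 SE in the wild type and −0.38 ± 0.31 SE in exa1-1, and the difference was 1.40 ± 0.49 SE (edgeR adjusted p = 0.027). The call was lost without any 1 of 5 libraries: replicate 1 of the wild-type control (1.33), replicate 3 of wild type with NaCl (1.06), replicate 1 or 3 of the exa1-1 control (1.32 and 1.27), or replicate 2 of exa1-1 with NaCl (1.21). The atp6-2 difference, 2.09 ± 0.84 SE, had an adjusted p of 0.060. The response to heat did not pass the test for any of 24 genes, where 1.64% of all genes passed, with 0 at an unadjusted p below 0.05. DESeq2 called 0 and gave 6 of the 24 no adjusted p.

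The unstressed groups of the sets also differed. Mitochondrial coding reads were 1.46-fold lower at 23 °C than on control medium in the wild type and 1.58-fold lower in exa1-1, with no overlap (exact permutation p = 0.1 for each). Of 16 genes tested, 3 were lower at 23 °C in the wild type, ATMG01130, ATMG00640 and ATMG01120, where 33.4% of all genes were lower, and 2 in exa1-1, ATMG01120 and cox2, where 33.8% were. Without single libraries these counts ran from 0 to 2 in the wild type, reaching 0 without replicate 3 at 23 °C, and from 1 to 2 in exa1-1. Set and condition cannot be told apart here, since these groups were treated in separate sets. They are also the controls of the salt and heat comparisons.

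For the nuclear genes that serve the same organelle, how many rose and how many fell at 39 °C depended on the scaling. Of 59 nuclear genes for respiratory chain subunits, 52 were tested. With TMM factors 45 rose and 3 fell in the wild type (median log2 0.69) and 42 rose and 3 fell in exa1-1 (0.55). Of all genes, 36.6% and 36.3% rose and 38.6% and 39.7% fell. Scaled to total reads, 6 rose and 30 fell in the wild type (median −0.22) and 6 rose and 34 fell in exa1-1 (−0.34), beside the all-gene medians of −0.97. Of all genes, 12.2% and 13.6% then rose and 72.8% and 71.7% fell. CYTC-2, a cytochrome c gene, rose under both scalings in the wild type, by a log2 of 3.82 ± 0.14 SE with TMM factors and 2.92 ± 0.15 SE with total reads. With NaCl, 21 of the 52 rose and 15 fell in the wild type (median 0.01) and 18 rose and 15 fell in exa1-1 (0.02), where of all genes 36.9% rose in the wild type and 37.1% in exa1-1. Scaled to total reads, 7 rose and 25 fell with NaCl in the wild type and 10 rose and 29 fell in exa1-1, where 28.9% and 29.3% of all genes rose and 47.0% and 47.8% fell.

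Alternative respiration genes code for oxidases and NADH dehydrogenases that bypass the proton-pumping complexes. Of 8 tested in the heat set, 7 rose and 0 fell in each genotype with TMM factors, where 36.6% and 36.3% of all genes rose. With total reads 3 rose and 2 fell in the wild type and 4 rose and 2 fell in exa1-1. Of all genes, 12.2% and 13.6% then rose and 72.8% and 71.7% fell. Of 11 tested in the salt set, 8 rose with NaCl in the wild type and 7 in exa1-1, with 1 fall in each, where 36.9% and 37.1% of all genes rose. With total reads 7 and 6 rose, beside 28.9% and 29.3% of all genes. AOX1A, the main stress-induced alternative oxidase, went from 25.4 ± 6.37 to 186 ± 36.1 RPM at 39 °C and from 77.8 ± 2.25 to 352 ± 3.79 with NaCl in the wild type (SD, n = 3).

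Of 16 genes for mitochondrial RNA editing, splicing, transcription and decay, 10 rose and 4 fell at 39 °C in the wild type and 11 rose and 4 fell in exa1-1 with TMM factors. Of all genes, 36.6% and 36.3% rose and 38.6% and 39.7% fell. With total reads 3 rose and 7 fell in each genotype, where 12.2% and 13.6% of all genes rose and 72.8% and 71.7% fell. MORF1, an editing factor, rose by a log2 of 2.14 ± 0.09 SE in the wild type with TMM factors and 1.24 ± 0.10 SE with total reads. nMAT1, a nuclear maturase for mitochondrial introns, fell by a log2 of −1.77 ± 0.19 SE and −2.67 ± 0.18 SE. With NaCl 8 of the 16 fell and 2 rose in the wild type, and 7 fell and 1 rose in exa1-1, beside 37.6% and 37.9% of all genes that fell. With total reads 12 fell in each genotype, beside 47.0% and 47.8% of all genes. Of 6 mitochondrial stress response genes, 6 rose with NaCl in the wild type and 5 in exa1-1, where 36.9% and 37.1% of all genes rose. With total reads 5 rose in each genotype, beside 28.9% and 29.3% of all genes. At 39 °C 5 of the 6 rose in each genotype, beside 36.6% and 36.3% of all genes. With total reads 3 rose at 39 °C in each genotype, beside 12.2% and 13.6% of all genes. DIC2, a mitochondrial dicarboxylate carrier gene named here after its value was seen, fell in the wild type by a log2 of −1.06 ± 0.30 SE.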

How the data were processed

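The authors deposited 2 tables for 24 libraries, whole-number read counts and FPKM. Per the submitters' processing notes, the tools included HTSeq 0.6.1p1 and HISAT2 2.0.4, with build TAIR10. The strand setting of counting is not given in the sources used here. The deposited FPKM equals count over library total and a fixed gene length, and served only for levels per length. From the deposited counts, tests used edgeR 4.0.16 in R 4.3.3 (TMM, filterByExpr, robust quasi-likelihood) on the 12 libraries of each set and of the unstressed groups, with 8 residual degrees of freedom and Benjamini-Hochberg adjustment over all genes at 0.05. Standard errors, taken as the size of the fold change (log2) divided by the root of F, are approximate at low counts. Totals were compared by exact permutation. Nuclear copies of 19 genes were sought with BLAST 2.17.0. DESeq2 1.42.0 and Python 3.11.15 were also used. The script was tested on simulated counts. Every mitochondrial gene could be named, along with up to 5 called genes per direction, EXA1 and up to 4 genes per nuclear list. The genes and lists were chosen with earlier results of these data known. Floors cover counting error only. No library was left out of the main tests.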

Additional observations from a re-analysis of the deposited data

Results flagged for a closer look

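ATMG00690 was the gene whose response to salt differed between genotypes by the interaction test, with a difference of 1.40 on the log2 scale (edgeR adjusted p = 0.027). It was the single case among 16 mitochondrial genes tested for salt, where 21.2% of all genes passed. None of 24 passed for heat, where 1.64% of all genes did. The call was lost with all 24 libraries in 1 fit (log2 1.38, adjusted p = 0.063) and without any of 5 single libraries, where it ranged down to 1.06 without replicate 3 of wild type with NaCl. The cause was not tested.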

How the results depend on the processing

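Depth limits most single genes, since many calls rest on fewer than 20 reads per library. Scaling by RLE size factors, leaving organelle genes out of the scaling and scaling to total reads kept all 76 calls of single genes. DESeq2 lost 4 of 76, no filter on low counts lost 3, and all 24 libraries in 1 fit lost 6. Of these 13 losses, 6 were of ATMG01120, with NaCl and at 23 °C in the wild type, 3 of atp6-2 with NaCl, 2 of cox2 in exa1-1 and 1 each of cox1 with NaCl and of the ATMG00690 salt interaction. Deviations of same-numbered libraries correlated between −0.07 and 0.144, and those of different-numbered libraries between −0.164 and 0.196. Replicate numbers thus gave no sign of pairing, but with 3 libraries per group this cannot exclude it. With replicate number as a block, 24 of 24 genes rose at 39 °C in each genotype, 10 and 8 of 16 fell with NaCl, and 3 were higher in exa1-1 with NaCl, atp6-2 being lost (adjusted p = 0.053). The block changed no other call.

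Scaled to mitochondrial coding reads, 10 genes passed at 39 °C in each genotype, 2 higher with NaCl in the wild type, 2 lower with NaCl in exa1-1, 1 between genotypes with NaCl, 0 for the salt interaction and 0 between the unstressed groups in each genotype. Of all genes, 20873 and 20844 of 21196 then passed at 39 °C, and 19068 and 18287 of 21759 with NaCl. Between genotypes with NaCl 13912 passed. The adjustment over all genes therefore corrected the heat and salt calls little. That scaling sets each gene against the mitochondrial coding reads together, and the direction of some genes then turned. In the wild type at 39 °C the log2 values were −1.89 for ATMG01370, −1.41 for ATMG00670, −0.21 for nad4L, −1.25 for atp6-2, −0.50 for ATMG01350, −0.91 for rpl16, −0.56 for ATMG00030, −0.86 for ATMG00630 and −1.72 for ATMG00660. In exa1-1 they were −1.80 for ATMG01370, −0.030 for nad7, −1.46 for ATMG00670, −1.62 for atp6-2, −0.45 for ATMG00640, −0.53 for ATMG00070, −1.16 for ATMG00030, −0.75 for ATMG00630 and −2.05 for ATMG00660. With NaCl in the wild type ATMG01370 was at 0.26.

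Other counts that moved by more than 1.5 times, or from or to 0, were 1 gene between genotypes on control medium with only the 6 libraries compared, 1 at 39 °C with RLE size factors, with all 24 libraries and with no filter, 0 for the salt interaction with all 24 libraries, and 0 for 23 °C against control medium in the wild type with only 6 libraries. For these the cause was not tested. Smaller moves included 33 and 35 genes at 39 °C, 11 and 10 with NaCl and 5 between genotypes with NaCl with no filter, and 11 and 9 with NaCl and 4 at 23 °C in the wild type with total reads. At 39 °C, scaling to total reads left more falls than rises among the nuclear respiratory chain genes and the mitochondrial RNA genes. The alternative respiration and stress response lists then had fewer rises, but still more rises than falls. Leaving out each library gave 0 to 1 genes between genotypes on control medium, 2 to 3 with NaCl, 0 to 1 at 39 °C, 7 to 11 for NaCl in the wild type, 6 to 8 in exa1-1, 0 to 2 for the salt interaction, 24 to 27 and 26 to 27 for heat, and 0 to 2 and 1 to 2 between the unstressed groups. The log2 ratio of mitochondrial coding reads between genotypes at 23 °C ran from −0.0485 to 0.136 without single libraries.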
